A study of Homo sapiens with 6 samples.

Results

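The mRNA decay machinery was followed through 39 genes, chosen by name and matched by symbol to the Ensembl identifiers of the deposited count tables: 9 nonsense-mediated decay factors, 4 core proteins of the exon junction complex, 11 subunits of the CCR4-NOT deadenylase, 5 TOB adaptors and other deadenylases, and 10 genes of decapping and 5′ to 3′ decay. All 39 were found among 60483 identifiers and all 39 were among the 15025 genes that passed the filter on low counts. RNA sequencing of total RNA was done in HepG2, an established human hepatocellular carcinoma cell line, at passages 16 to 19. Cells were transfected with an siRNA against FTO (3 libraries) or with a control siRNA (3 libraries), and no other treatment or allele separates the groups in the labels. FTO is a demethylase that removes N6-methyladenosine (m6A) from RNA. Whether replicate libraries stem from separate cultures is not stated in the labels, so the p-values here reflect only how these libraries scatter, which may be technical.

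Most human mRNAs are destroyed from their ends. The poly(A) tail is shortened, by PAN2-PAN3 and by the CCR4-NOT complex, then the 5′ cap is removed by DCP2 with its activators, and the uncapped body is digested by the exonuclease XRN1. Nonsense-mediated decay is the route for transcripts whose stop codon lies upstream of an exon junction complex. There UPF1, phosphorylated by the kinase SMG1, brings in the endonuclease SMG6 or the adaptors that lead to deadenylation and decapping.

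FTO itself was measured at 11.2, 14.5 and 5.21 CPM (counts scaled to library size with TMM factors) in FTO siRNA libraries 1, 2 and 3, against 40.8, 38.0 and 38.8 CPM in control siRNA libraries 1, 2 and 3. Every FTO siRNA library lay below every control siRNA library, and the mean was 26.3% of control (log2 fold change −1.93 ± 0.32 SE, edgeR adjusted p = 0.00932). Library totals lay between 15713279 and 18390953 counts, so that 3 counts correspond to 0.163 to 0.191 CPM before the TMM factors are applied. The groups separated on the first principal component, which held 57.9% of the variance, and the second, with 25.7%, set FTO siRNA library 3 apart from FTO siRNA libraries 1 and 2. Of 15025 genes tested, 11.4% passed an adjusted p of 0.05, with 7.53% higher and 3.83% lower after FTO siRNA. In 36.5% of genes the 3 FTO siRNA and the 3 control siRNA libraries did not overlap (19.2% higher, 17.4% lower). Hepatocyte markers were expressed in all libraries, with summed levels of 16100 to 28300 CPM after FTO siRNA and 23200 to 33300 CPM after control siRNA, and 0 of 10 passed the test. Of the 10, 8 had a log2 fold change below 0 (46.5% of all genes did) and 1 above, with a median of −0.30. APOB was the lowest at −1.40 (edgeR adjusted p = 0.065).

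Most of the decay machinery did not pass the test after FTO siRNA, and the genes that did were the decapping enzyme and a deadenylase. DCP2 fell to 55.6% of its control level and CNOT6 to 66.2%. These were 2 of 39 genes (5.13%), against 3.83% of all genes called lower. Both have longest transcripts above 5.96 kb, and 7.82% of all protein-coding genes of that length were called lower. With length and GC trends removed neither call held (edgeR adjusted p = 0.105 for DCP2 and 0.116 for CNOT6). None of the 39 was called higher, against 7.53% of all genes. An unadjusted p under 0.05 was found for 7 of them. Over all 15025 genes tested, the gene ranked 4183 by p still had an unadjusted edgeR p of 0.0495. The log2 fold changes ran from −0.85 to 0.48 with a median of −0.09, beside 0.04 over all genes tested. Of the 39, 12 were above 0 and 27 below, and 46.5% of all genes tested were below 0. The libraries of the groups did not overlap in 12 of the 39 genes (30.8%, against 36.5% of all genes): SMG9 stood higher (2.56%, against 19.2%) and 11 genes stood lower (28.2%, against 17.4%). The 95% interval of the log2 fold change lay within 1 unit of 0 in 33 of the 39 genes. In RNA from whole cultures, fewer cells expressing a gene and less RNA per cell cannot be told apart.

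**Figure D1:**
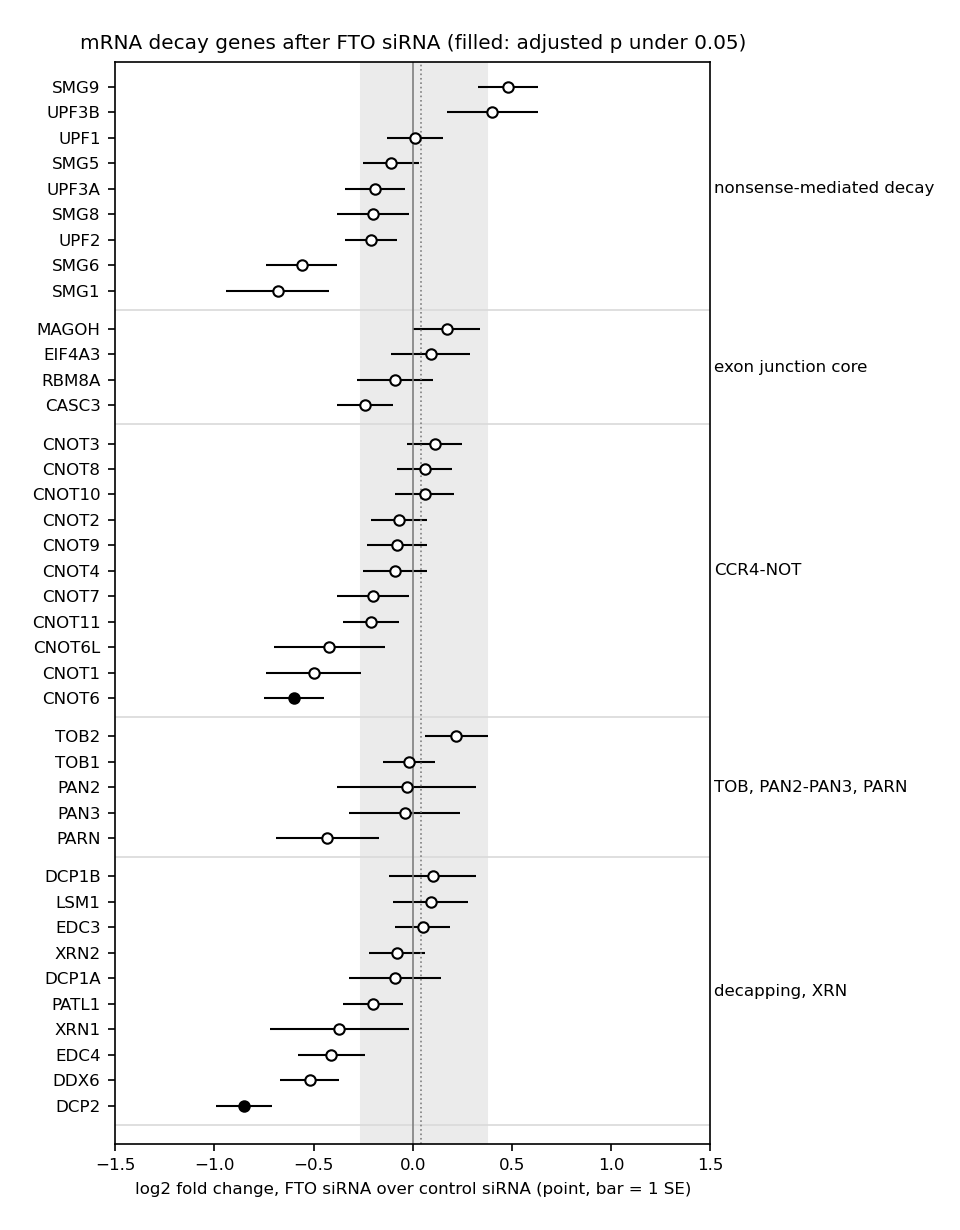
Log2 fold change of the 39 mRNA decay genes, FTO siRNA over control siRNA (horizontal axis), by role; points are edgeR estimates, bars 1 SE, filled points have an adjusted p under 0.05. The dotted line is the median of all genes tested (0.04) and the grey band their middle quartiles (−0.259 to 0.374); DCP2 at −0.85 and CNOT6 at −0.60 are the filled points, and SMG9 at 0.48 is the highest.

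Of the 9 nonsense-mediated decay factors none passed the test in either direction (against 11.4% of all genes). An unadjusted p under 0.05 was found for 3: SMG9, SMG6 and SMG1. Many of all genes also reached such a p, as the rank given above shows. The median log2 fold change of the 9 was −0.19. The groups did not overlap in 5 of the 9 (55.6%, against 36.5% of all genes), with SMG9 above (11.1%, against 19.2%) and UPF2, SMG1, SMG5 and SMG6 below (44.4%, against 17.4%).

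UPF1, the RNA helicase at the centre of the pathway, was measured at 316, 363 and 337 CPM in FTO siRNA libraries 1, 2 and 3, against 330, 330 and 350 CPM in control siRNA libraries. The groups overlapped, with a log2 fold change of 0.01 (95% interval −0.31 to 0.33, edgeR adjusted p = 0.972), and the sign turned to −0.02 with RLE scaling. UPF2, which bridges UPF1 to the exon junction complex through UPF3, averaged 76.5 ± 4.38 CPM after FTO siRNA and 88.7 ± 2.70 CPM after control siRNA (SD, n = 3 each). Its groups stood apart with a small difference (log2 fold change −0.21 ± 0.13, adjusted p = 0.312).

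SMG1, the kinase that phosphorylates UPF1, had 82.4, 141 and 180 CPM in FTO siRNA libraries 1, 2 and 3, against 225, 225 and 197 CPM in control siRNA libraries. All FTO siRNA libraries were lower, but they spread widely among themselves, and the log2 fold change of −0.68 ± 0.26 did not pass the test (edgeR adjusted p = 0.128). SMG1 has near-identical copies in the genome: 18.1% of the 50-base words of its longest transcript also occur in other genes, so its count is uncertain. Counts of the copies themselves were low: the highest value among SMG1P1 to SMG1P7 was 4.55 CPM after FTO siRNA (SMG1P1) and 6.52 CPM after control siRNA (SMG1P7). How reads that match several genes were handled is not given, so these counts cannot show how far the copies are expressed.

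The SMG1 kinase is held in check by SMG8 and SMG9, which bind it together. SMG9 had 78.0, 75.9 and 93.3 CPM in FTO siRNA libraries 1, 2 and 3, against 55.8, 54.9 and 66.2 CPM in control siRNA libraries. Every FTO siRNA library was above every control siRNA library, and SMG9 was the only one of the 39 genes with that pattern (log2 fold change 0.48 ± 0.15, edgeR adjusted p = 0.0742). Its partner SMG8 averaged 29.6 ± 5.90 CPM after FTO siRNA and 33.9 ± 1.77 CPM after control siRNA, with overlapping groups (SD, n = 3 each; log2 fold change −0.20 ± 0.18, adjusted p = 0.513). The adjusted p of SMG9 passed the threshold when transcript length and GC trends were removed (0.0462) and without FTO siRNA library 3 (0.0489).

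SMG6, the endonuclease that cuts the target near its stop codon, had 19.4, 25.9 and 26 CPM in FTO siRNA libraries 1, 2 and 3, against 35.5, 39.6 and 30.2 CPM in control siRNA libraries. The groups did not overlap, with the highest FTO siRNA library at 26 and the lowest control siRNA library at 30.2 CPM (log2 fold change −0.56 ± 0.18, edgeR adjusted p = 0.0812; DESeq2 adjusted p = 0.0397). SMG5, an adaptor that binds phosphorylated UPF1, averaged 287 ± 10.6 CPM after FTO siRNA and 309 ± 14.6 CPM after control siRNA (SD, n = 3 each; log2 fold change −0.11 ± 0.14).

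UPF3A and UPF3B are paralogues that link UPF2 to the exon junction. UPF3B, the main activator of the pair, had 33.8, 25.4 and 47.4 CPM in FTO siRNA libraries and 28.1, 24.2 and 28.3 CPM in control siRNA libraries. UPF3A had 56.0, 51.6 and 42.1 CPM in FTO siRNA libraries and 60.6, 55.3 and 55 CPM in control siRNA libraries. Groups overlapped for both, and FTO siRNA library 3 was the highest for UPF3B and the lowest for UPF3A. Neither passed the test (log2 fold change 0.40 ± 0.23 for UPF3B and −0.19 ± 0.15 for UPF3A).

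The exon junction core, which marks spliced mRNA for this pathway, also had no gene that passed the test (against 11.4% of all genes). The median log2 fold change over its 4 genes was 0. MAGOH, which with RBM8A locks the complex onto RNA, averaged 48.7 ± 9.60 CPM after FTO siRNA and 43.3 ± 1.26 CPM after control siRNA (SD, n = 3 each). RBM8A averaged 68.6 ± 17.8 CPM after FTO siRNA and 73.0 ± 1.66 CPM after control siRNA, and 15.2% of its words occur in other genes. EIF4A3, the helicase that binds the RNA itself, had 139, 124 and 82.2 CPM in FTO siRNA libraries 1, 2 and 3, against 106, 107 and 111 CPM in control siRNA libraries, so that 2 of its FTO siRNA libraries were above and 1 below all control siRNA libraries. CASC3, the peripheral core protein, was the only one of the 4 whose groups did not overlap (25%, against 36.5% of all genes). CASC3 had 124, 152 and 123 CPM in FTO siRNA libraries, against 156, 157 and 158 CPM in control siRNA libraries (log2 fold change −0.24 ± 0.14, edgeR adjusted p = 0.3).

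Among the 11 CCR4-NOT subunits, 1 fell (9.09%, against 3.83% of all genes), none rose (against 7.53%) and 10 did not pass the test, with a median log2 fold change of −0.09. The gene that fell, CNOT6, encodes CCR4a, an exonuclease that removes the poly(A) tail. CNOT6 had 56.9, 72.5 and 63.6 CPM in FTO siRNA libraries 1, 2 and 3, against 106, 98.7 and 86.4 CPM in control siRNA libraries. The highest FTO siRNA library was below the lowest control siRNA library, and the means were 64.3 ± 7.81 CPM after FTO siRNA and 97.2 ± 10.1 CPM after control siRNA (SD, n = 3 each; log2 fold change −0.60 ± 0.15, 95% interval −0.94 to −0.25, edgeR adjusted p = 0.0404). The call was close to the threshold: the adjusted p was 0.0512 with library size alone, 0.0551 with no filter, 0.116 with length and GC trends removed (log2 fold change −0.38), 0.0789 without FTO siRNA library 1, and 0.181, 0.159 and 0.0791 without control siRNA libraries 1, 2 and 3.

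CNOT6L encodes CCR4b, the paralogue that takes the same place in the complex. CNOT6L had 6.63, 8.77 and 14.3 CPM in FTO siRNA libraries 1, 2 and 3, against 13, 14.5 and 12.3 CPM in control siRNA libraries. FTO siRNA libraries 1 and 2 were below all control siRNA libraries and library 3 was among them (log2 fold change −0.42 ± 0.28, edgeR adjusted p = 0.363). The DEDD-type deadenylases CNOT7 and CNOT8 are alternative subunits too. CNOT7 averaged 105 ± 22.3 CPM after FTO siRNA and 120 ± 8 CPM after control siRNA, and CNOT8 averaged 47.2 ± 2.36 CPM after FTO siRNA and 45.1 ± 4.07 CPM after control siRNA (SD, n = 3 each), with overlapping groups for both.

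CNOT1 is the scaffold on which the complex is built. CNOT1 had 173, 275 and 354 CPM in FTO siRNA libraries 1, 2 and 3, against 408, 373 and 355 CPM in control siRNA libraries. The groups stood apart only by a narrow margin, since FTO siRNA library 3 at 354 CPM nearly reached control siRNA library 3 at 355 CPM (log2 fold change −0.50 ± 0.24, edgeR adjusted p = 0.222). CNOT11, which binds the N-terminal part of CNOT1 with CNOT10, averaged 124 ± 3.09 CPM after FTO siRNA and 143 ± 18.0 CPM after control siRNA, again without overlap (SD, n = 3 each; log2 fold change −0.21 ± 0.14, adjusted p = 0.385). CNOT3, a subunit that binds CNOT2, had the highest log2 fold change of the complex at 0.11 ± 0.14. CNOT2, CNOT4, CNOT9 and CNOT10 had log2 fold changes between −0.09 and 0.06, with overlapping groups.

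None of the 5 TOB adaptors and other deadenylases passed the test (against 11.4% of all genes). In none did the groups stand apart (against 36.5% of all genes). TOB1 and TOB2 are antiproliferative proteins that bring CCR4-NOT to poly(A)-binding protein. TOB1 averaged 45.3 ± 0.923 CPM after FTO siRNA and 45.8 ± 3.40 CPM after control siRNA, and TOB2 averaged 78.3 ± 5.47 CPM after FTO siRNA and 67.3 ± 10.6 CPM after control siRNA (SD, n = 3 each).

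PAN2 and PAN3 form the deadenylase that makes the initial trimming. PAN2 had 27.3, 26.7 and 71.3 CPM in FTO siRNA libraries 1, 2 and 3, against 41.9, 45.1 and 41.1 CPM in control siRNA libraries. FTO siRNA libraries 1 and 2 were below and library 3 above all control siRNA libraries, and the log2 fold change of −0.03 had a 95% interval of −0.84 to 0.78. PAN3 was arranged alike, with 10.7, 17.4 and 25.2 CPM in FTO siRNA libraries 1, 2 and 3, against 19.4, 18.0 and 17.5 CPM in control siRNA libraries (log2 fold change −0.04 ± 0.28). PARN, a poly(A)-specific ribonuclease that also matures small RNAs, was arranged the other way, with its lowest value in FTO siRNA library 3: 42.5, 55.9 and 25.5 CPM in FTO siRNA libraries, against 55.7, 60.4 and 50.9 CPM in control siRNA libraries (log2 fold change −0.43 ± 0.26, edgeR adjusted p = 0.312).

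Of the 10 genes of decapping and 5′ to 3′ decay, DCP2 fell (10%, against 3.83% of all genes), none rose (against 7.53%) and 9 did not pass the test, with a median log2 fold change of −0.14. DCP2 is the hydrolase that removes the cap. DCP2 had 35.1, 40.0 and 34.8 CPM in FTO siRNA libraries 1, 2 and 3, against 62.2, 69.5 and 66.0 CPM in control siRNA libraries. The groups were far apart relative to their spread, with means of 36.6 ± 2.91 CPM after FTO siRNA and 65.9 ± 3.62 CPM after control siRNA (SD, n = 3 each; log2 fold change −0.85 ± 0.14, 95% interval −1.16 to −0.54, edgeR adjusted p = 0.0087). The call was lost, with the same direction, when length and GC trends were removed (log2 fold change −0.51, adjusted p = 0.105) and without control siRNA library 2 (−0.81, adjusted p = 0.0595). Only 0.303% of the words of its longest transcript occur in other genes.

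The cofactors DCP1A and DCP1B, which activate DCP2, did not pass the test. DCP1A had 20.3, 23.9 and 37.9 CPM in FTO siRNA libraries 1, 2 and 3, against 29, 27.8 and 30.6 CPM in control siRNA libraries, with FTO siRNA library 3 above and the other FTO siRNA libraries below all controls. DCP1B averaged 12.8 ± 2.78 CPM after FTO siRNA and 12 ± 1.61 CPM after control siRNA (SD, n = 3 each).

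DDX6, the helicase that represses translation and enhances decapping on CCR4-NOT targets, had 105, 141 and 125 CPM in FTO siRNA libraries 1, 2 and 3, against 184, 181 and 168 CPM in control siRNA libraries. The groups did not overlap (log2 fold change −0.52 ± 0.15, 95% interval −0.87 to −0.18), and the adjusted p was 0.0589 with edgeR and 0.0173 with DESeq2. EDC4, the scaffold that joins DCP1 and DCP2, had 82.9, 88.0 and 59.5 CPM in FTO siRNA libraries, against 104, 101 and 101 CPM in control siRNA libraries, also without overlap (log2 fold change −0.41 ± 0.17, edgeR adjusted p = 0.158). EDC3, PATL1 and LSM1, the remaining decapping activators, had log2 fold changes of 0.05, −0.20 and 0.09, with overlapping groups. PATL1 averaged 284 ± 33.5 CPM after FTO siRNA and 327 ± 11.7 CPM after control siRNA (SD, n = 3 each).

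XRN1, the cytoplasmic exonuclease that digests uncapped mRNA, had 11.5, 22.1 and 36.8 CPM in FTO siRNA libraries 1, 2 and 3, against 33.4, 31.3 and 26.6 CPM in control siRNA libraries. FTO siRNA libraries 1 and 2 lay below all control siRNA libraries and library 3 above them (log2 fold change −0.37 ± 0.35, 95% interval −1.18 to 0.43). XRN2, its nuclear counterpart in transcription termination, had 334, 364 and 326 CPM in FTO siRNA libraries, against 371, 361 and 346 CPM in control siRNA libraries, with a log2 fold change of −0.08 ± 0.14.

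**Figure D2:**
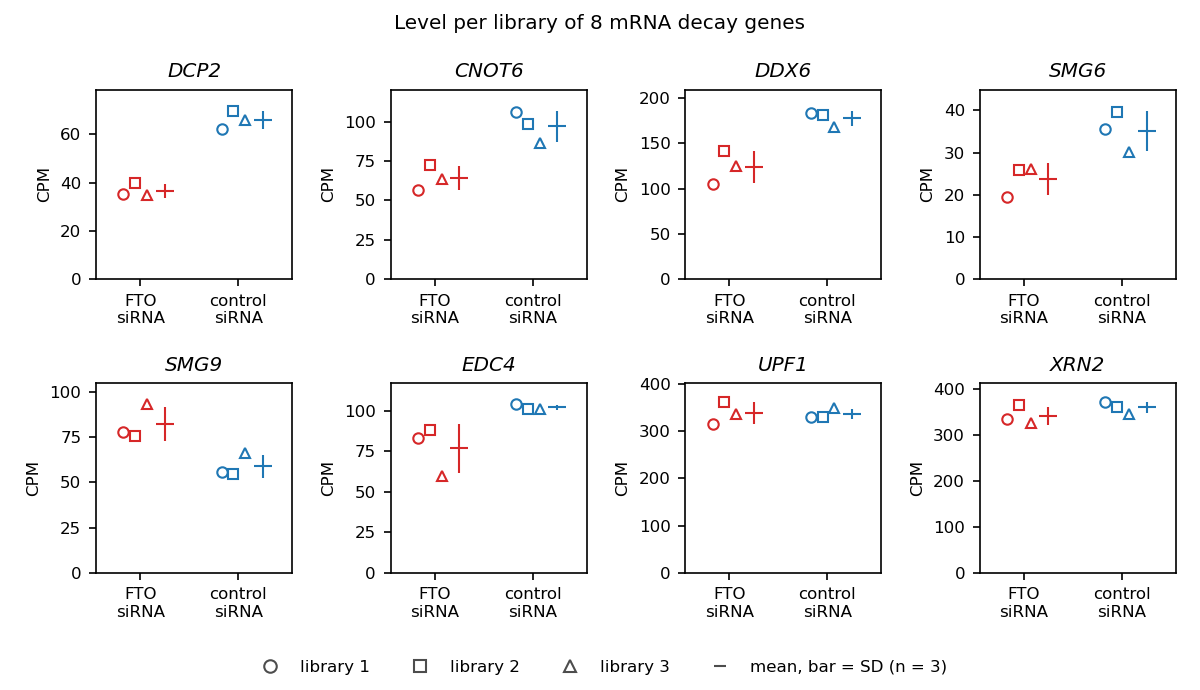
CPM per library of 8 mRNA decay genes (vertical axes start at 0), FTO siRNA left and control siRNA right; symbols are libraries 1 to 3, the cross is the mean and its bar the SD (n = 3). DCP2, CNOT6, DDX6, SMG6 and EDC4 lie lower and SMG9 higher in every FTO siRNA library, while UPF1 and XRN2 overlap.

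The sequences just upstream of DCP2 and CNOT6 are shown because these are the genes that passed the test; each is the 250 bases before the gene's start in RefSeq on GRCh38.p14, plus strand, chr5:112976548-112976797 for DCP2 and chr5:180494129-180494378 for CNOT6. Capitals mark CCAAT and GGGCGG, searched on both strands, and the motifs overlapped in neither window.
DCP2: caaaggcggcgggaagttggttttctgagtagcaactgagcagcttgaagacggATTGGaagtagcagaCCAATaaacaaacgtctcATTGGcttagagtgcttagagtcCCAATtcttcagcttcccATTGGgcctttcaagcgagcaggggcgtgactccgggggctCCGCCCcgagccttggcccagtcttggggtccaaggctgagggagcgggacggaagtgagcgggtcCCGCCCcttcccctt
CNOT6: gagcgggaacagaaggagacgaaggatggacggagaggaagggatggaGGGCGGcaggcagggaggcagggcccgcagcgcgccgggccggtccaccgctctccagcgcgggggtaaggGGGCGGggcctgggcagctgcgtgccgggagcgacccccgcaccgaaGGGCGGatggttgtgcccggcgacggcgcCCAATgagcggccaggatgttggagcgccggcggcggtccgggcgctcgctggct
The DCP2 window held 5 CCAAT and 2 GGGCGG matches, and the CNOT6 window held 1 CCAAT and 3 GGGCGG matches. CCAAT occurred in 32% and GGGCGG in 42.6% of 35116 such windows of all genes. The 52 windows of 34 matched decay genes held them in 26.9% and 73.1%. These matches describe letters and say nothing about which factors bind.

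Because FTO acts on m6A, the pentamer GGACT, a frequent form of the m6A consensus, was counted on the sense strand of the longest GENCODE transcript of each gene. DCP2 held 4 (0.447 per kb) and CNOT6 held 8 (1.27 per kb). The median over the 39 genes was 0.835 per kb, beside 0.924 per kb over 12610 protein-coding genes tested, so the genes that fell lie on either side of both. No m6A was measured here.

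Levels can be compared between genes only per length of exon, as CPM per kb of exon (RPKM). On that scale XRN2 was the most abundant of the 39 genes, with 99.3 ± 5.78 RPKM after FTO siRNA and 105 ± 3.66 RPKM after control siRNA (SD, n = 3 each). CNOT6L was the least abundant, with 1.06 ± 0.42 RPKM after FTO siRNA and 1.42 ± 0.119 RPKM after control siRNA. Within the pathways, the adaptor SMG5 led the nonsense-mediated decay factors and the endonuclease SMG6 was the lowest of them, with 54.1 and 2.25 RPKM after FTO siRNA and 58.3 and 3.33 RPKM after control siRNA. Per kb of the longest transcript, UPF1 at 63.3 was just above SMG5 at 62.9 after FTO siRNA. After control siRNA SMG5 at 67.8 was above UPF1 at 62.9 on that length. CNOT11 led CCR4-NOT with 44.7 RPKM after FTO siRNA and 51.5 RPKM after control siRNA, and MAGOH led the exon junction core, where RBM8A was the lowest. TOB1 led the TOB adaptors and other deadenylases with 18.0 RPKM after FTO siRNA and 18.2 RPKM after control siRNA, and PAN3 was the lowest there with 2.80 RPKM after FTO siRNA and 2.88 RPKM after control siRNA. The enzymes that take off the cap and digest the body were among the scarcer of the 39. DCP2 stood at 3.68 ± 0.292 RPKM after FTO siRNA and 6.62 ± 0.364 RPKM after control siRNA, and XRN1 at 1.96 ± 1.06 RPKM after FTO siRNA and 2.54 ± 0.289 RPKM after control siRNA.

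Several of these activities are carried by paralogues, so the share of each pair's level, per kb of exon, held by the gene named first was compared over the libraries. CNOT6 made up 90.3 ± 3.42% of CNOT6 plus CNOT6L after FTO siRNA and 91.2 ± 0.778% after control siRNA (SD, n = 3 each). MAGOH made up 87.8 ± 2.12% of MAGOH plus MAGOHB after FTO siRNA and 84.9 ± 0.797% after control siRNA, the only pair of the 7 without overlap. UPF3A made up 43.7 ± 10.3% of UPF3A plus UPF3B after FTO siRNA, with its lowest value of 32.2% in FTO siRNA library 3, and 53.1 ± 1.99% after control siRNA. The groups of the remaining pairs overlapped. CNOT7 held 44.0% of CNOT7 plus CNOT8 after FTO siRNA and 48.9% after control siRNA, and TOB1 held 51.2% of TOB1 plus TOB2 after FTO siRNA and 55.4% after control siRNA. DCP1A held 61.0% of DCP1A plus DCP1B after FTO siRNA and 64.7% after control siRNA, and XRN1 held 1.94% of XRN1 plus XRN2 after FTO siRNA and 2.37% after control siRNA. Which gene of a pair holds more can depend on the length used. Per kb of the longest transcript, UPF3A held 58.4% after FTO siRNA and 67.5% after control siRNA. On that scale DCP1A held 43.8% after FTO siRNA and 47.5% after control siRNA. In exact two-sided permutation tests the p-values ran from 0.1, the smallest that 3 against 3 libraries allow, to 1, and from 0.467 to 1 after adjustment over the 7 pairs, so no share could be called changed in this design.

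The FTO siRNA libraries differed from each other more than the control siRNA libraries did. The SD was larger after FTO siRNA in 30 of the 39 genes (76.9%, beside 80.6% of all genes), and the median coefficient of variation of the 39 was 14.4% after FTO siRNA and 5.3% after control siRNA. The lowest FTO siRNA library was library 1 in 14 genes, library 2 in 6 and library 3 in 19, and the highest was library 1 in 9, library 2 in 15 and library 3 in 15. Some long transcripts, such as XRN1, SMG1 and CNOT1, had higher levels in FTO siRNA library 3 than in library 1, and some short ones, such as MAGOH and LSM1, had lower levels. Others did not follow this order. In log2 CPM, library 3 minus library 1 was −0.53 for CNOT7 (6.913 kb), −0.0116 for DCP2 (8.947 kb) and 0.485 for UPF3B (2.378 kb).

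Across the 39 genes, the difference in log2 CPM between FTO siRNA libraries 3 and 1 had a Pearson r of 0.56 (Spearman rho 0.53) with the log2 length of the longest transcript, against r = −0.28 (rho −0.24) between control siRNA libraries 3 and 1. Over 12610 protein-coding genes the same differences had r = 0.36 (rho 0.39) for FTO siRNA and r = −0.065 (rho −0.11) for control siRNA. The fold change between the groups was ordered by length the other way, with r = −0.62 (rho −0.64) over the 39 genes and r = −0.22 (rho −0.28) over 12610 protein-coding genes. These are correlations across genes of the same libraries, which are not independent replicates. With protein-coding genes cut into 5 bins of length, the 9 decay genes of the longest bin, above 5.96 kb, had a median log2 fold change of −0.50 and all genes there had −0.18. The 2 decay genes of the shortest bin, up to 2.17 kb, had a median of 0.13 and all genes there had 0.24. DCP2 and CNOT6 have longest transcripts of 8.947 and 6.303 kb, and the values with length and GC trends removed together are given above for each; the part of length alone was not tested.

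**Figure D3:**
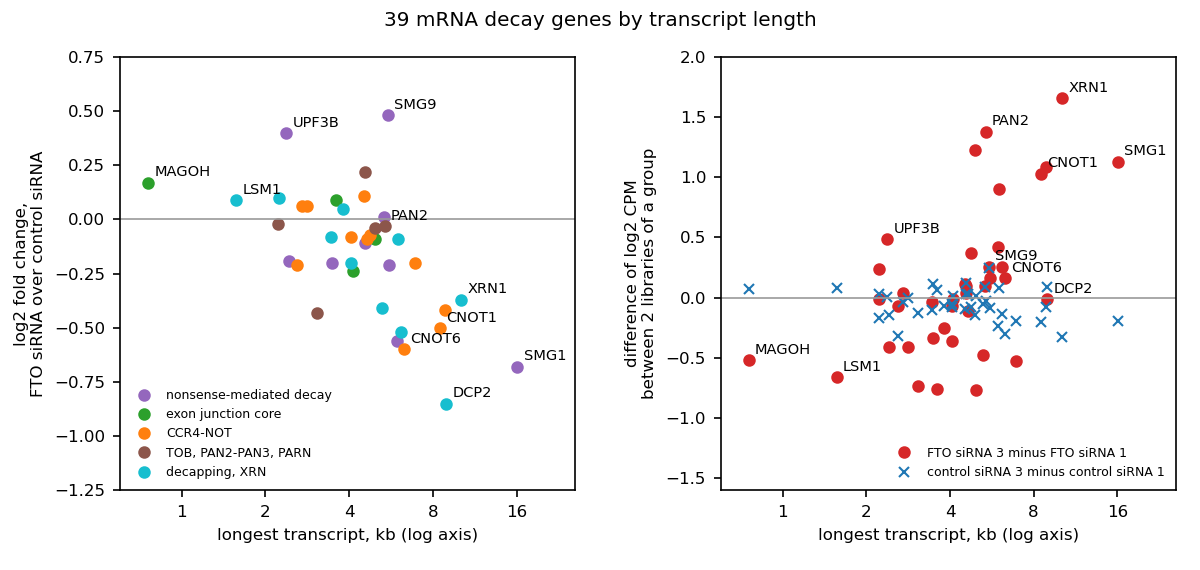
The 39 mRNA decay genes by length of the longest transcript (kb, log axis): left, log2 fold change of FTO siRNA over control siRNA, coloured by role; right, log2 CPM of library 3 minus library 1 within FTO siRNA (red points) and within control siRNA (blue crosses). Fold changes are lower for longer transcripts (r = −0.62), while FTO siRNA library 3 exceeds library 1 for longer transcripts (r = 0.56).

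Since FTO siRNA library 3 stood apart, the calls were also made without it. Then 11 of the 39 genes passed the test (28.2%, against 30.0% of 15290 genes), with 10 lower (25.6%, against 14.1%) and 1 higher (2.56%, against 15.9%). The 10 were DCP2, CNOT6, SMG1, SMG6, CNOT1, CNOT6L, PAN2, DCP1A, DDX6 and XRN1, and the higher gene was SMG9. All 10 have long transcripts, from 5.372 kb (PAN2) to 16.115 kb (SMG1) for the longest of each gene. The 14.1% beside them is over genes of every length, and the part of length was not tested here. The log2 fold change of XRN1 was then −0.88 (edgeR adjusted p = 0.0241), that of PAN2 −0.69 (0.00359) and that of CNOT6L −0.81 (0.0113), while DCP2 at −0.84 and CNOT6 at −0.61 were close to their values with all libraries.

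Around these genes, 5 further lists of the decay pathways were counted. None of 14 tested partners of nonsense-mediated decay and the exon junction passed the test (against 11.4% of all genes), and their median log2 fold change was −0.08; GSPT2 was too low to test. In the list of partners of the LSM ring and of decapping, NBDY was too low to test. Of the 14 tested, 1 fell (7.14%, against 3.83% of all genes) and none rose (against 7.53%), with a median of −0.01. The gene was NUDT16, another decapping enzyme, with 49.8, 48.2 and 50.2 CPM in FTO siRNA libraries, against 68.6, 73.8 and 68.0 CPM in control siRNA libraries (log2 fold change −0.51 ± 0.13, edgeR adjusted p = 0.0378). Its call was lost without any of the libraries except FTO siRNA library 3, with adjusted p-values of 0.0575 to 0.183, and under upper quartile scaling (0.0553), no filter (0.0726) and removed length and GC trends (0.0755). The 19 genes of the RNA exosome and SKI complex, which degrade RNA from the 3′ end, had a median of −0.23. Of these 19 genes 1 fell (5.26%, against 3.83% of all genes) and none rose (against 7.53%). It was DIS3L, the exonuclease of the cytoplasmic exosome, with 43.1, 53.4 and 39.3 CPM in FTO siRNA libraries, against 66.2, 75.8 and 70.7 CPM in control siRNA libraries (log2 fold change −0.65 ± 0.16, adjusted p = 0.0346). Without FTO siRNA library 1 or any control siRNA library the adjusted p of DIS3L was 0.0737 to 0.158.

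A further list held 20 RNA-binding proteins and adaptors around deadenylation, not all of which recruit deadenylases. Of these 20 genes 2 rose and 1 fell, which is 15% against 11.4% of all genes, and the median log2 fold change was −0.15. ZFP36L2 and ZFP36, related proteins that bind AU-rich elements, moved in opposite directions. ZFP36L2 had 71.6, 73.1 and 56.6 CPM in FTO siRNA libraries, against 146, 125 and 117 CPM in control siRNA libraries (log2 fold change −0.95 ± 0.16, edgeR adjusted p = 0.0102). ZFP36 had 55.7, 46.3 and 65.3 CPM in FTO siRNA libraries, against 29.8, 26.4 and 35.0 CPM in control siRNA libraries (log2 fold change 0.87 ± 0.18, adjusted p = 0.0193). ZC3H12A, which encodes the endonuclease Regnase-1, had 117, 89.6 and 80.3 CPM in FTO siRNA libraries, against 47.6, 60.7 and 53.6 CPM in control siRNA libraries (log2 fold change 0.83 ± 0.18, adjusted p = 0.0241). Groups did not overlap for any of these 3, nor for others of the list. This held for 65% of the 20 genes (35% higher, 30% lower), against 36.5% of all genes (19.2% higher, 17.4% lower). Without control siRNA library 1 or 2 the adjusted p was 0.0594 and 0.0537 for ZFP36L2, 0.110 and 0.109 for ZFP36 (0.0697 with length and GC trends removed), and 0.133 and 0.0776 for ZC3H12A, whose call was also lost without FTO siRNA library 1 (0.0522) or 2 (0.0501) and without control siRNA library 3 (0.0930).

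Of 13 transcripts known as substrates of nonsense-mediated decay in human cells, 7 rose (53.8%, against 7.53% of all genes called higher). None of the 13 fell (against 3.83% of all genes called lower), and their median log2 fold change was 0.60. Several of them, among them GADD45A, DDIT3 and ATF3, are also known as genes of the stress response, and the list was chosen with earlier results of these data known. UPP1, uridine phosphorylase, had 65.9, 67.3 and 94.8 CPM in FTO siRNA libraries, against 22.2, 24.4 and 27.2 CPM in control siRNA libraries (log2 fold change 1.63 ± 0.19, edgeR adjusted p = 0.00287). GADD45A, a growth arrest gene, had 113, 97.8 and 159 CPM in FTO siRNA libraries, against 24.5, 43.0 and 45.8 CPM in control siRNA libraries (log2 fold change 1.71 ± 0.27, adjusted p = 0.00838). These calls held under every alternative run, including each library left out. DDIT3, a transcription factor of the integrated stress response, had a log2 fold change of 0.85 ± 0.18 (adjusted p = 0.0206), and SNHG15, a host transcript of a small nucleolar RNA, one of 0.60 ± 0.14 (adjusted p = 0.0284). DDIT3 passed in the fit without FTO siRNA library 3 but in none without another library (0.0581 to 0.125), and SNHG15 only in those without FTO siRNA library 2 or 3 (0.0625 to 0.158 otherwise). ZFAS1, GADD45B and ATF3, named after their values were seen, were the others that rose. The list's count was 4 with length and GC trends removed, when ZFAS1 (0.057), GADD45B (0.0783) and ATF3 (0.0611) missed the threshold, and ATF3 also missed it with limma-voom (0.088) and with library size only (0.0545). The count was 2 without control siRNA library 1 or 2, and 3 without FTO siRNA library 1 or control siRNA library 3.

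**Figure D4:**
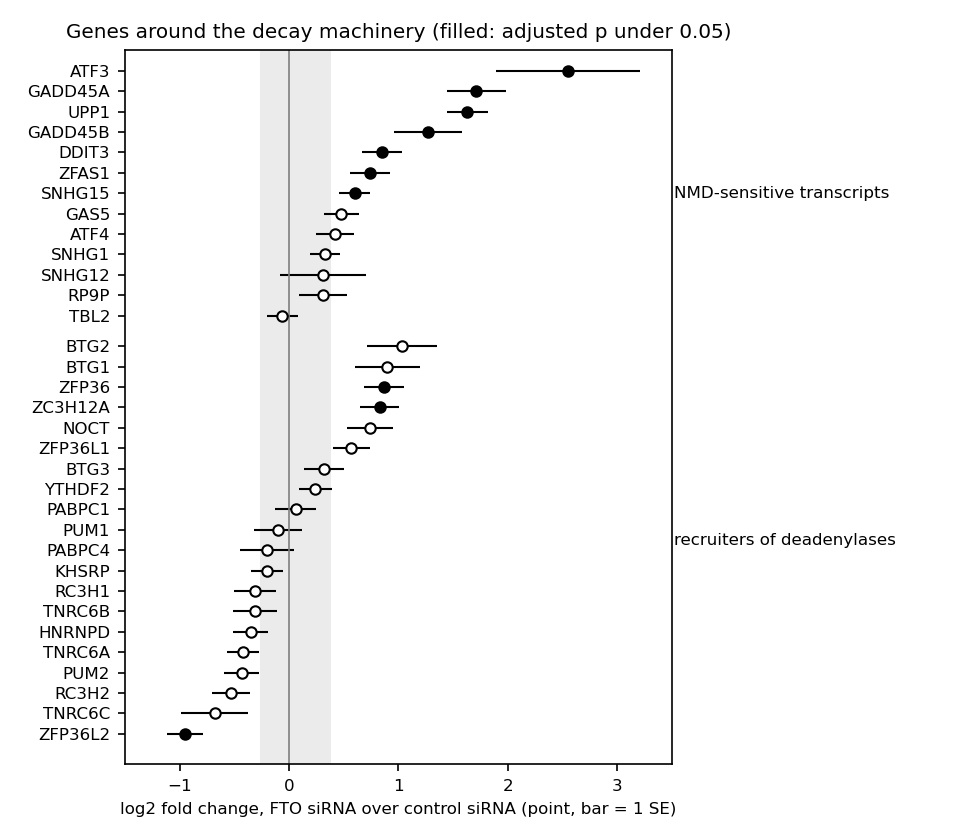
Log2 fold change, FTO siRNA over control siRNA, of 13 transcripts known as substrates of nonsense-mediated decay (NMD) and of 20 RNA-binding proteins and adaptors around deadenylation. The label of the 20 is recruiters of deadenylases, though not all of them do so. Points are edgeR estimates, bars 1 SE, filled points have an adjusted p under 0.05, and the grey band is the middle quartiles of all genes. The filled points are 7 substrates, all above 0, and ZFP36 and ZC3H12A above and ZFP36L2 below 0.

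Markers of other cell types were counted beside these results. Of 8 immune cell markers tested 5 were called higher after FTO siRNA (62.5%, against 7.53% of all genes): PTPRC, CD3D, CD2, NKG7 and CD74. The 12 listed summed to 78.4 to 112 CPM after FTO siRNA and 52.3 to 102 CPM after control siRNA, mostly from LYZ, which was not called and averaged 71.7 CPM after FTO siRNA and 72.8 CPM after control siRNA. PTPRC was at 1.24, 1.24 and 1.02 CPM after FTO siRNA and at 0 to 0.0609 CPM after control siRNA, where MS4A1 was at 0 in all libraries. Of 6 fibroblast markers tested 3 were called higher (50%, against 7.53% of all genes), and the 10 listed summed to 275 to 613 CPM after FTO siRNA and 116 to 202 CPM after control siRNA, with DCN, ACTA2, POSTN and THY1 at 0 in all control siRNA libraries. TAGLN, which was called higher with overlapping groups, made up most of the sum after FTO siRNA, with a mean of 279 CPM, against 60.3 CPM after control siRNA. Their part in the changes of the decay genes was not tested.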

How the data were processed

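Total RNA of HepG2 cells was sequenced in 6 libraries, 3 after FTO siRNA and 3 after control siRNA, with groups and replicate numbers taken from the labels. The authors deposited raw counts per Ensembl gene, 1 table per library. Per the submitters' processing notes, the tools were TopHat2 2.0.11, TopHat and HTSeq and the builds hg19 and GRCh37, with no role or order stated. For strand use, the annotation release and the handling of reads that match several genes, the sources used here give nothing, so genes with copies or with overlapping or antisense neighbours are uncertain. The members, gene lists and tests were chosen with earlier results of these data known.

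Of 60483 identifiers, 56753 matched GENCODE 29 (37168 with the same version), which gave symbols, exon lengths and GC content; it is on GRCh38, so no coordinates of the counted genes are given. Identifiers that did not match carried up to 0.0522% of the counts of a library, and all 37 mitochondrial genes were at 0. Each file was checked for rows naming no gene, and none was found. Every pair of libraries differed by more than sampling noise (chi-square over degrees of freedom of at least 8.45).

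After filterByExpr by group and TMM scaling, the counts of 15025 genes were tested two-sided with edgeR 4.0.16 in R 4.3.3 (glmQLFit, glmQLFTest; intercept and group). P-values were adjusted by Benjamini-Hochberg and read at 0.05. The common biological coefficient of variation was 0.221. An SE is the log2 fold change over the square root of F. CPM are TMM-scaled and RPKM use the union of exons. Intervals are 95% from the same fit, and floors of 3 counts cover counting error only. Fits were tested on simulated data. Shared words are 50-base words of the longest transcript found in another gene. The text names FTO, every called member, per group the 2 highest and 2 lowest fold changes, the highest and lowest RPKM, all paralogues, and up to 4 called genes per other list; some remaining members are added with values. Alternatives were RLE, upper quartile and no scaling factors, no filter or at least 1 CPM in 3 libraries, DESeq2 1.42.0, limma-voom (limma 3.58.1), edgeR's older quasi-likelihood method, the replicate number as a block, lowess trends on length and GC removed (span 0.3), and each library left out.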

Additional observations from a re-analysis of the deposited data

How the results depend on the processing

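FTO stayed lower and past the threshold under every alternative. Over the 39 decay genes and the alternatives, 596 single-gene results kept direction and side of the threshold, 12 lost a call, 12 gained one and 43 changed sign; the cause was not tested. Members called lower, 2 with all libraries, numbered 1 with library size only, 1 with no filter, 4 with DESeq2 (DCP2, CNOT6, DDX6 and SMG6), 0 with length and GC trends removed, and 0 to 10 with a library left out. Members called higher, 0 with all libraries, numbered 1 with those trends removed and 0 to 1 with a library left out. Over all genes, called either way 1707, higher 1132 and lower 575, leaving out a library gave 330 to 4582, 236 to 2430 and 94 to 2152, the highest without FTO siRNA 3 and the lowest without control siRNA 1; DESeq2 gave 1029 lower. No filter moved the median of all genes to 0.18 and that of the members to −0.14.

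Deviations of same-numbered libraries from their group means correlated at −0.138, −0.0643 and −0.248, and no FTO siRNA library correlated best with its own number. With only 3 libraries per group, these values cannot decide whether same-numbered libraries were handled together. With the replicate block 1041 genes were called (736 higher, 305 lower) and 1 member was lower (DCP2, −0.85, adjusted p = 0.0293; CNOT6 −0.60, adjusted p = 0.101). With the block and trends removed the counts were 941, 646, 295 and 0.

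Sign changes were as follows. UPF1 was −0.02 with RLE and DESeq2, and −0.04 with no filter, with trends removed and with block and trends. Upper quartile factors gave TOB1 0.03, PAN2 0.04 and PAN3 0.02, and library size only gave PAN2 0.01. Trends removed gave RBM8A 0.03, CNOT2 0.09, CNOT4 0.03, CNOT7 0.11, PAN2 0.01, PAN3 0.07, DCP1A 0.04 and LSM1 −0.13; with the block too, CNOT2 was 0.09, CNOT4 0.03, CNOT7 0.04, PAN3 0.02, DCP1A 0.02 and LSM1 −0.14. Leaving out a library gave ranges of −0.07 to 0.04 (UPF1), −0.08 to 0.26 (EIF4A3), −0.02 to 0.24 (MAGOH), −0.30 to 0.06 (RBM8A), −0.01 to 0.09 (CNOT8), −0.03 to 0.16 (CNOT10), −0.07 to 0.02 (TOB1), −0.69 to 0.19 (PAN2), −0.41 to 0.21 (PAN3), −0.42 to 0.07 (DCP1A), −0.09 to 0.22 (DCP1B), −0.02 to 0.10 (EDC3) and −0.12 to 0.20 (LSM1). The share differences ran from −1.94 to 1.08 points for CNOT6 and from −1.02 to 0.059 points for XRN1. The lowest count of a member in a library was 107.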
